A study of Mus musculus with 4 samples.

Results

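Hox genes encode homeodomain transcription factors that give cells a position along the body axis. The mouse has 4 Hox clusters, Hoxa on chromosome 6, Hoxb on chromosome 11, Hoxc on chromosome 15 and Hoxd on chromosome 2, and genes at the same place in different clusters are paralogs, numbered by group 1 to 13. The set described here is a list of 38 genes of these clusters, expressed or not, chosen where the array carries a probe set annotated to that gene alone. Of the 38, 33 were measured in this way, among 18193 measured genes in all. Hoxa6, Hoxb8, Hoxc11, Hoxc12 and Hoxd4 had no such probe set. The brightest probe set of a gene, by mean signal over the 4 arrays, stands for it, and its other probe sets were compared with that one.

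Total RNA of 3T3-MEFs was measured on 4 Affymetrix arrays, 2 of SMRTmRID cells and 2 of wild-type cells. 3T3-MEFs are mouse embryonic fibroblasts passaged until they grow as a line. SMRT is a corepressor that brings histone deacetylases to nuclear receptors, and the SMRTmRID cells come from mice that carry mutations in its receptor interaction domains. Cells of both genotypes were undifferentiated and were collected once confluent. The labels call the arrays of a genotype technical replicates and name no treatment, age, sex or body region of the embryos, so each genotype may be 1 line, and a difference between genotypes cannot be told apart from a difference between lines. The p-values below measure only the spread between such arrays. The level of the SMRT transcript would not test mutations within its domains and was not analysed here.

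Genes at low group numbers lie at the 3′ end of a cluster, are switched on first in the embryo and act in the hindbrain and neck, whereas genes at high numbers act in the trunk, limbs and tail. Retinoic acid, through its nuclear receptors, switches on the 3′ genes, Polycomb complexes keep clusters silent and trithorax complexes keep them active. Cultured fibroblasts are known for keeping the Hox pattern of the body region they were taken from. HOX proteins bind DNA together with PBX, MEIS and PREP cofactors.

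Promoter sequence was searched for the hexamer AGGTCA, which nuclear receptors recognise, since SMRT acts through these receptors. RefSeq promoter windows of the GRCm38.p6 assembly, which run from 250 bases before to 50 bases after a start, were at hand for 22 of the listed genes, in 24 windows. AGGTCA, read on both strands, was in 7 of the 24 windows (29.2%), against 5340 of 32851 windows of all genes (16.3%). The 7 genes were Hoxa5, Hoxb4, Hoxc4, Hoxd3, Hoxd4, Hoxd8 and Hoxd10. A direct repeat of AGGTCA with 5 bases of any kind between the copies was in 0 of the 24, against 0.00913% of all windows, and with 1 base between them in 0 of the 24, against 0.0396%. The PBX-HOX motif TGATNNAT was in 4 of the 24 (16.7%), against 8.85% of all windows. TATAAA was in 4 of the 24 (16.7%), against 13.6% of all windows. The windows below belong to genes with unlike readings on the arrays: signal was higher in SMRTmRID cells for Hoxd8, Hoxc4 and Hoxb4, while Hoxd10 was near 0 on every array and Hoxa5 was alike in both genotypes. Each is read 5′ to 3′ on the strand of the gene, with the hexamer or its reverse complement in capitals, and a match says only that the letters are there. The Hoxd8 window is chr2:74704365-74704664 on the plus strand, with AGGTCA starting 135 bases before the start. The Hoxd10 window is chr2:74691641-74691940, plus strand, with TGACCT 69 bases before it. The Hoxc4 window is chr15:103034145-103034444, plus strand, with TGACCT 146 bases before it. The Hoxb4 window is chr11:96318017-96318316, plus strand, with TGACCT 81 bases before it. The Hoxa5 window is chr6:52204538-52204837, minus strand, with AGGTCA 42 bases after the start.
Hoxd8: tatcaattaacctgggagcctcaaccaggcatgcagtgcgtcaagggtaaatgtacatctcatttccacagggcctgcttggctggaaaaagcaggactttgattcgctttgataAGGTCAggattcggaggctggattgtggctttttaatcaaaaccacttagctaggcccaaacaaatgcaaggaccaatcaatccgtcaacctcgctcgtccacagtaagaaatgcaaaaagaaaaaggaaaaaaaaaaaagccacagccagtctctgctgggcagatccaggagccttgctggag
Hoxd10: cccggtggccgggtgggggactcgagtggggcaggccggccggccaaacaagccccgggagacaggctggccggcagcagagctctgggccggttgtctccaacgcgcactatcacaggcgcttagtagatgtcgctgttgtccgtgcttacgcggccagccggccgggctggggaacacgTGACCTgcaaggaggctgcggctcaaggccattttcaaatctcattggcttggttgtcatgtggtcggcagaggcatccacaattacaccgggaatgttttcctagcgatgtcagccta
Hoxc4: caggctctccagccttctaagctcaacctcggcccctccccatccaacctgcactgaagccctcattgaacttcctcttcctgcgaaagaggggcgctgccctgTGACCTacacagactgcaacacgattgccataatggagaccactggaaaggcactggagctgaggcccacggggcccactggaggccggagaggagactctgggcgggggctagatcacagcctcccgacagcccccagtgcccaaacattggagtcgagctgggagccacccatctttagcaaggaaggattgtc
Hoxb4: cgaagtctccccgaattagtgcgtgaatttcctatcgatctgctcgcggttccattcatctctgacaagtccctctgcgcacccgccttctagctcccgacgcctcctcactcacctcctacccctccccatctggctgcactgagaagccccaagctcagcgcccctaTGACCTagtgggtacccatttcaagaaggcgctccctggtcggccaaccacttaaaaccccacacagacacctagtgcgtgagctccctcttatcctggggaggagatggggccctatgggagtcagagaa
Hoxa5: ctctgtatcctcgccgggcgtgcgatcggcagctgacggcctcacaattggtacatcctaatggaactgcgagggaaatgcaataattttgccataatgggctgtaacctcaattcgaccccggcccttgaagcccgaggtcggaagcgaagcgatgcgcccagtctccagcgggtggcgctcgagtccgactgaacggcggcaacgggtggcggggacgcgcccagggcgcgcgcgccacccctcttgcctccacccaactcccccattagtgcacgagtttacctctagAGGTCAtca

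SMRTmRID cells had higher signal of a run of Hoxb genes, of Hoxc4 to Hoxc8 and of Hoxd8 and Hoxd9, and lower signal of Hoxa9 to Hoxa11 and Hoxc10. A difference is the SMRTmRID mean minus the wild-type mean of log2(signal + 16), with the standard error (SE, n = 2 arrays per genotype), and a gene is called at an adjusted p under 0.05 by limma over all 18193 genes. Of the 33 measured Hox genes, 12 rose (36.4%), where 17.8% of all genes were called higher, and 7 fell (21.2%), where 19.8% of all genes were called lower. All 12 that rose did so by at least 2-fold, which is 36.4% of the 33, against 6.66% of all genes called higher at that size. Of those that fell, 2 did so, against 4.51% of all genes. The other 14 did not pass the test. The median difference of the 33 genes was 0.29, beside -0.00 for all genes, but it moved with the setting: it was 0.04 without the first SMRTmRID array, 0.10 with a pseudocount of 64, 0.13 with each array centred on its median and -0.03 when the probe sets of each gene were averaged. On the arrays themselves, both SMRTmRID signals lay above both wild-type signals for 17 of the 33, where 32% of all genes showed this, and below them for 13, where 32.8% of all genes did.

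**Figure D1:**
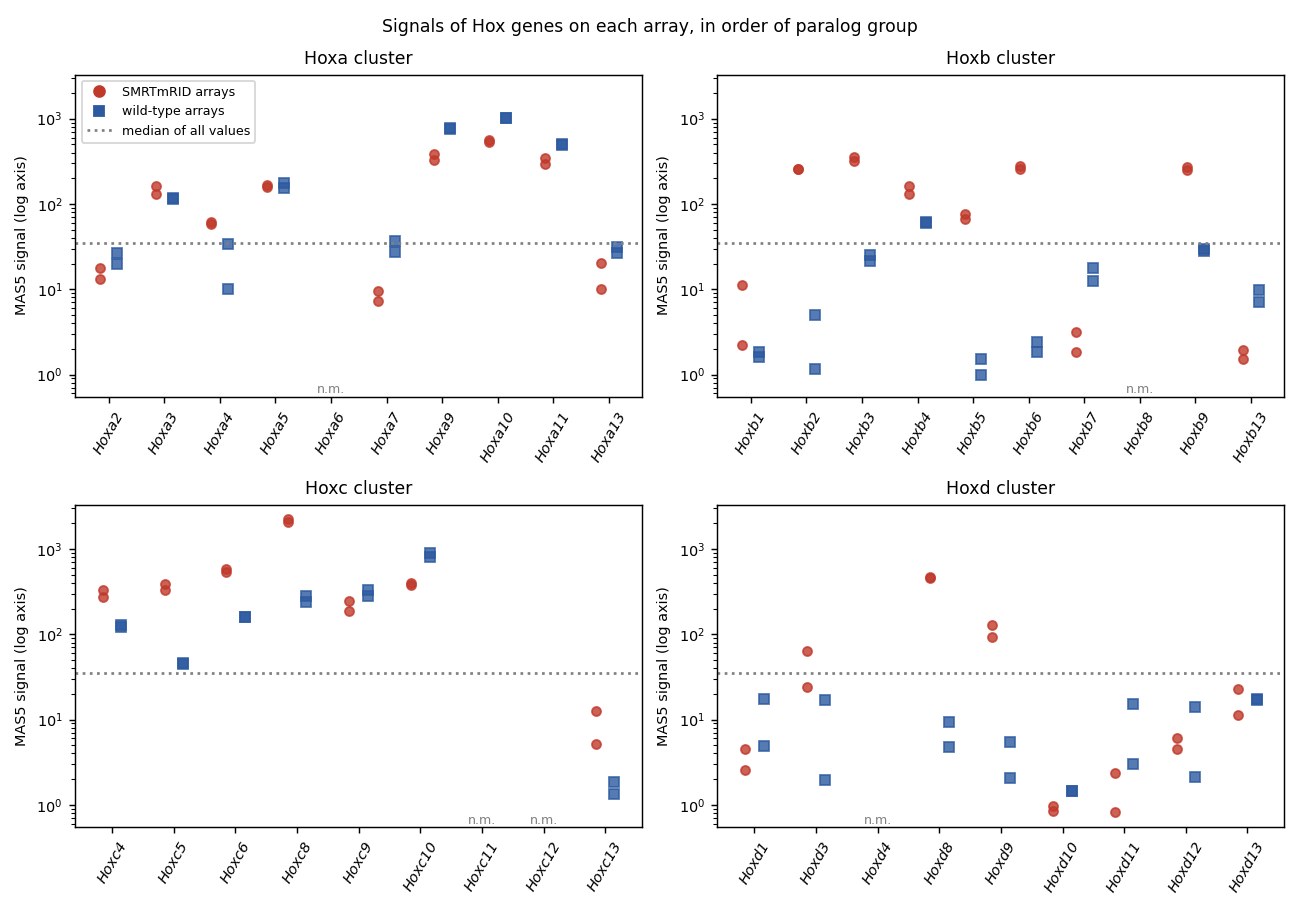
Signal of each Hox gene on each array, on a log scale, by cluster and paralog group, with SMRTmRID points left of wild-type points for each gene. Genes without a single-gene probe set are marked n.m. Hoxb2 to Hoxb6, Hoxb9, Hoxc4 to Hoxc8, Hoxd8 and Hoxd9 stand higher in SMRTmRID cells, and Hoxa9 to Hoxa11 and Hoxc10 stand lower.

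Low signal was common, and the deposited values come without detection calls here. The median of all values in the table was 35.1, and 11 of the 33 Hox genes were below it on all 4 arrays (33.3%), near the 32.2% of all genes. Below it on both SMRTmRID arrays were 12 Hox genes (36.4%), as were 36.1% of all genes, and below it on both wild-type arrays were 20 (60.6%), against 37.3% of all genes. Signals of different probe sets are not on a common scale, so each Hox gene is compared only with itself.

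The arrays of a genotype correlated at 0.986 for SMRTmRID and 0.987 for wild-type over all genes, and arrays of different genotypes at 0.935. Over all genes, 3240 were called higher and 3599 lower, so 47.4% of calls were higher. Median centring moved the median of all genes by -0.16 and gave 2341 higher and 4506 lower, with 34.2% of calls higher, whereas the Hox genes then numbered 13 higher and 7 lower.

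Markers of fibroblasts and of other cell types were read beside the Hox genes, with 17.8% of all genes called higher and 19.8% lower. Of 13 measured fibroblast markers 6 rose and 4 fell, and their summed signal was 101826 to 106845 in SMRTmRID cells, against 81164 to 83235 in wild-type cells. Dcn, which encodes the matrix protein decorin, read 8878 and 8777 in SMRTmRID cells, against 60.9 and 63.7 in wild-type cells. Thy1, a fibroblast surface marker, read 3172 and 3184 in SMRTmRID cells, against 20.6 and 6.57 in wild-type cells. Pdgfra rose by 4.20, Lum by 3.38, Pdgfrb by 1.78 and Col3a1 by 0.62, while S100a4 fell by 0.31, Col5a1 by 0.24, Col6a1 by 0.20 and Fn1 by 0.18. The differences that rose were thus larger than those that fell, and Thy1 and Lum were below the median signal in wild-type cells. Lum read 190 and 176 in SMRTmRID cells, against 3.25 and 3.05 in wild-type cells. Its rise was 5.47 with a pseudocount of 1 and 1.88 with a pseudocount of 64.

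In the lists of other cell types the called shares ran from 0 to 28.6% higher and from 0 to 16.7% lower. Over all genes they were 17.8% and 19.8%. Below the median signal on all 4 arrays were 16.7% of chondrocyte and osteoblast markers and up to 85.7% of the other lists, against 32.2% of all genes. Of 6 chondrocyte and osteoblast markers 1 rose and 1 fell, with summed signal of 384 to 467 in SMRTmRID cells, against 2930 to 3037 in wild-type cells. Col2a1, the cartilage collagen, read 46.1 and 29.3 in SMRTmRID cells, against 2555 and 2703 in wild-type cells, while Sox9, a cartilage transcription factor, rose by 0.39. Of 7 skeletal muscle markers 2 rose and 1 fell, with summed signal of 96.2 to 103 in SMRTmRID cells, against 230 to 387 in wild-type cells. Acta1 read 8.63 and 4.35 in SMRTmRID cells, against 324 and 203 in wild-type cells, while Myog rose by 0.96 and Des by 0.91. Of 5 neural crest and glia markers Ngfr rose, by 1.05, and the list summed to 122 to 142 in SMRTmRID cells, against 87.9 to 116 in wild-type cells. Of 6 blood markers Lyz2 rose, by 1.65, and the list summed to 299 to 338 in SMRTmRID cells, against 149 to 373 in wild-type cells. Of 8 epithelial markers Krt19 rose by 1.95 and Cdh1 fell by 1.85, and the list summed to 291 to 320 in SMRTmRID cells, against 278 to 336 in wild-type cells. Endothelial markers, 7 measured with 0 calls, summed to 78.6 to 92.2 in SMRTmRID cells, against 79.4 to 96.2 in wild-type cells. Mature adipocyte markers, 4 measured with 0 calls, summed to 46.1 to 63.0 in SMRTmRID cells, against 32.1 to 52.0 in wild-type cells. Pecam1 of endothelium, Ptprc of blood and Adipoq of adipocytes were at most 15.3 on any array. Other markers of these lists were brighter. Csf1r, also a blood marker, read 180 and 149 in SMRTmRID cells, against 266 and 86.7 in wild-type cells. Kdr of endothelium read 44.3 and 35.6 in SMRTmRID cells, against 22.4 and 31.8 in wild-type cells. Retn of adipocytes read 17.7 and 41.4 in SMRTmRID cells, against 32.6 and 19.8 in wild-type cells. Leaving out single arrays ended the calls of Col5a1, Col6a1, Fn1, Sox9, Myog, Des and Ngfr (adjusted p between 0.0530 and 0.228). The part of cell types in the Hox differences was not tested, and fewer cells of a type cannot be told apart from less RNA per cell in these bulk samples.

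The Hoxa cluster was the only cluster of the 4 with no call higher: 4 of 9 measured genes fell, 0 rose and 5 were not called. Its median difference was -0.54. Hoxa2, which patterns the second pharyngeal arch, had signals of 17.7 and 13.2 in SMRTmRID cells, against 26.3 and 19.6 in wild-type cells. This difference of -0.31 ± 0.27 did not pass the test (adjusted p = 0.450, limma). Hoxa3, needed for thymus and parathyroid, read 164 and 131 in SMRTmRID cells, against 116 and 118 in wild-type cells. Its difference was 0.29 ± 0.16 (adjusted p = 0.210), and another of its probe sets ran the other way, with 84.4 and 102 in SMRTmRID cells, against 151 and 183 in wild-type cells (difference -0.74, adjusted p = 0.0116 over all 45037 probe sets). Hoxa3 therefore has no settled direction. Hoxa4, a gene of the neck vertebrae, read 60.9 and 57.9 in SMRTmRID cells, against 33.5 and 9.94 in wild-type cells. The wild-type arrays lay far apart, and the difference of 1.07 ± 0.36 missed the threshold (adjusted p = 0.0582). Without the first wild-type array it was 1.54 and passed (adjusted p = 0.0225), and without the second it was 0.61 (adjusted p = 0.225). Hoxa5, which acts in the neck skeleton and the lung, read 157 and 166 in SMRTmRID cells, against 175 and 153 in wild-type cells. These ranges overlapped, with a difference of -0.02 ± 0.13 (adjusted p = 0.936).

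From Hoxa7 on, the called Hoxa genes were all lower in SMRTmRID cells. Hoxa7, a gene of the thoracic skeleton, read 7.23 and 9.63 in SMRTmRID cells, against 27.4 and 36.5 in wild-type cells. The difference was -0.97 ± 0.27 (adjusted p = 0.0269), at signals near or under the median of the table, and leaving out any single array ended the call (adjusted p between 0.0535 and 0.119). Hoxa9, known in blood stem cells and leukaemia, read 328 and 382 in SMRTmRID cells, against 751 and 779 in wild-type cells. It fell by 1.08 ± 0.08 on the log2 scale (adjusted p = 6.90e-05). Its second probe set also fell by 0.81 (adjusted p = 0.00159 over all probe sets). Hoxa10, which acts in the lumbar spine and uterus, read 536 and 566 in SMRTmRID cells, against 1019 and 1010.1 in wild-type cells. It fell by 0.86 ± 0.05 (adjusted p = 2.91e-05), while a second, dim probe set differed by 0.19 (adjusted p = 0.700), and the average of both gave -0.34 (adjusted p = 0.0283). Hoxa11, needed for the forearm bones, read 344 and 296 in SMRTmRID cells, against 500.1 and 486 in wild-type cells. It fell by 0.60 ± 0.09 (adjusted p = 0.00135). Hoxa13, which shapes digits and the genital tract, was dim on all arrays, at 20.4 and 10.2 in SMRTmRID cells, against 31.1 and 26.7 in wild-type cells (difference -0.54 ± 0.29, adjusted p = 0.211).

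The Hoxb cluster was mostly dim in wild-type cells: 3 of its 9 measured genes were below the median signal on both SMRTmRID arrays, against 8 on both wild-type arrays. In SMRTmRID cells 6 of the 9 rose, 1 fell and 2 were not called, with a median difference of 2.34. Hoxb1, a hindbrain gene, read 11.3 and 2.23 in SMRTmRID cells, against 1.60 and 1.85 in wild-type cells (difference 0.33 ± 0.25, adjusted p = 0.362). Hoxb2, which also acts in the hindbrain, read 254 and 257 in SMRTmRID cells, against 1.16 and 4.94 in wild-type cells. The rise was 3.84 ± 0.24 (adjusted p = 3.22e-05), from wild-type signals close to 0. Hoxb3, a gene of the hindbrain and neck, read 351 and 316 in SMRTmRID cells, against 21.3 and 25.3 in wild-type cells. It rose by 3.15 ± 0.17 (adjusted p = 1.90e-05), and its second probe set by 3.10. Hoxb4, used to expand blood stem cells, was the Hoxb gene with wild-type signal above the median: it read 132 and 163 in SMRTmRID cells, against 61.2 and 59.4 in wild-type cells. Its rise was 1.09 ± 0.19 (adjusted p = 0.00336), and its second probe set gave 1.14. Hoxb5, known in the gut nervous system, read 75.7 and 67.1 in SMRTmRID cells, against 0.991 and 1.503 in wild-type cells. It rose by 2.34 ± 0.26 (adjusted p = 0.000444). Hoxb6, a gene of the trunk, read 282 and 257 in SMRTmRID cells, against 2.38 and 1.86 in wild-type cells. The rise was 3.98 ± 0.23 (adjusted p = 2.35e-05), again from wild-type signals close to 0.

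Hoxb7 broke this run. Its probe set read 1.84 and 3.17 in SMRTmRID cells, against 12.4 and 17.9 in wild-type cells, all below the median signal. The difference of -0.75 ± 0.22 passed the test (adjusted p = 0.0380), but no longer did when any single array was left out (adjusted p between 0.0571 and 0.135). A probe set annotated to both Hoxb8 and Hoxb7 ran the other way, at 123 and 119 in SMRTmRID cells, against 8.90 and 5.03 in wild-type cells. Its difference was 2.58 ± 0.27 (adjusted p = 0.000445), in a fit over all 45037 probe sets that called 15.2% higher and 13% lower. Which of the pair that shared probe set reads was not tested. Hoxb9, which acts in the rib cage, read 268 and 252 in SMRTmRID cells, against 27.8 and 29.6 in wild-type cells. It rose by 2.62 ± 0.17 (adjusted p = 3.97e-05). Hoxb13, known in the prostate and tail, lies apart from the rest of the cluster and was dim, at 1.51 and 1.96 in SMRTmRID cells, against 9.82 and 7.02 in wild-type cells (difference -0.46 ± 0.20, adjusted p = 0.121).

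The Hoxc cluster split by position: the 4 measured genes of groups 4 to 8 rose, Hoxc9 and Hoxc10 fell, and Hoxc13 did not pass the test. The median difference of the 7 measured genes was 1.17. Hoxc4, a gene of the neck and upper trunk, read 272 and 333 in SMRTmRID cells, against 121 and 128 in wild-type cells. It rose by 1.17 ± 0.13 (adjusted p = 0.000373). Hoxc5, its neighbour, read 332 and 386 in SMRTmRID cells, against 44.6 and 46.5 in wild-type cells. The rise was 2.60 ± 0.14 (adjusted p = 1.94e-05), with 2.53 and 1.41 at its other probe sets, the last of which missed the threshold (adjusted p = 0.0508 over all probe sets). Hoxc6, a gene of the upper trunk and forelimb level, read 580.1 and 542 in SMRTmRID cells, against 161 and 159 in wild-type cells. It rose by 1.71 ± 0.08 (adjusted p = 9.13e-06), and by 1.79 at a second probe set, while another differed by -0.40 (adjusted p = 0.543), and the average of all gave 1.03. Hoxc8, which patterns the lower ribs and the motor neurons of the forelimb, read 2072 and 2219 in SMRTmRID cells, against 239 and 279 in wild-type cells. It rose by 2.98 ± 0.08 (adjusted p = 1.24e-06), with wild-type signal already well above the median.

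Hoxc9, which sets the identity of thoracic motor neurons, read 246 and 190 in SMRTmRID cells, against 282 and 328 in wild-type cells. The difference of -0.47 ± 0.14 passed the test (adjusted p = 0.0355). The call ended without the second SMRTmRID array, where the difference was -0.29 (adjusted p = 0.153), and without the first or the second wild-type array (adjusted p = 0.0625 and 0.193). Hoxc10, a gene of the lumbar region and hindlimb, read 376 and 398 in SMRTmRID cells, against 804 and 896 in wild-type cells. It fell by 1.10 ± 0.07 (adjusted p = 3.65e-05). Hoxc13, needed for hair and nails, was dim on all arrays, at 5.15 and 12.7 in SMRTmRID cells, against 1.87 and 1.34 in wild-type cells (difference 0.49 ± 0.23, adjusted p = 0.151).

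All 8 measured Hoxd genes were below the median signal on both wild-type arrays, and 5 were so on both SMRTmRID arrays. Hoxd8 and Hoxd9 rose, none fell and 6 did not pass the test, with a median difference of -0.04. Hoxd1, known in pain-sensing neurons, read 2.54 and 4.57 in SMRTmRID cells, against 4.95 and 17.3 in wild-type cells (difference -0.44 ± 0.28, adjusted p = 0.288). Hoxd3, a gene of the uppermost neck vertebrae, read 23.9 and 64.4 in SMRTmRID cells, against 16.9 and 1.95 in wild-type cells. The groups did not overlap, but each spread widely, and the difference of 1.22 ± 0.45 missed the threshold (adjusted p = 0.0757). Without the first SMRTmRID array it was 1.73 and passed (adjusted p = 0.0444), without the second it was 0.71 (adjusted p = 0.300), and without the second wild-type array it was 0.78 (adjusted p = 0.342). A probe set shared by Hoxd4 and Hoxd3 read 53.3 and 58.7 in SMRTmRID cells, against 10.4 and 3.32 in wild-type cells (difference 1.67 ± 0.31, adjusted p = 0.00653 over all probe sets). A second shared probe set was dim and differed by 0.40 (adjusted p = 0.142).

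Hoxd8, which acts in the trunk, read 474 and 457 in SMRTmRID cells, against 9.26 and 4.77 in wild-type cells. Its rise of 4.39 ± 0.19 (adjusted p = 8.01e-06) was the greatest among the 33 Hox genes at the pseudocount of 16, and its second probe set rose by 3.24. With a pseudocount of 1 the differences were 6.44 for Hoxb6, 6.16 for Hoxb2 and 5.92 for Hoxd8, so their order depends on the pseudocount. Hoxd9, a gene of the lower spine and limbs, read 93.5 and 127 in SMRTmRID cells, against 5.47 and 2.06 in wild-type cells. It rose by 2.67 ± 0.29 (adjusted p = 0.000373). The rise stopped there. Hoxd10, the next gene and one of lumbar motor neurons and hindlimb, read 0.977 and 0.844 in SMRTmRID cells, against 1.45 and 1.46 in wild-type cells (difference -0.05 ± 0.17, adjusted p = 0.876). Hoxd11, a partner of Hoxa11 in the forearm, read 2.35 and 0.819 in SMRTmRID cells, against 3.03 and 15.3 in wild-type cells (difference -0.48 ± 0.28, adjusted p = 0.246). Hoxd12, a limb gene, read 4.47 and 6.10 in SMRTmRID cells, against 2.14 and 13.8 in wild-type cells (difference -0.13 ± 0.28, adjusted p = 0.786). Hoxd13, the digit gene, read 22.5 and 11.4 in SMRTmRID cells, against 17.6 and 16.8 in wild-type cells (difference -0.03 ± 0.28, adjusted p = 0.954). All of Hoxd10 to Hoxd13 were dim in both genotypes.

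**Figure D2:**
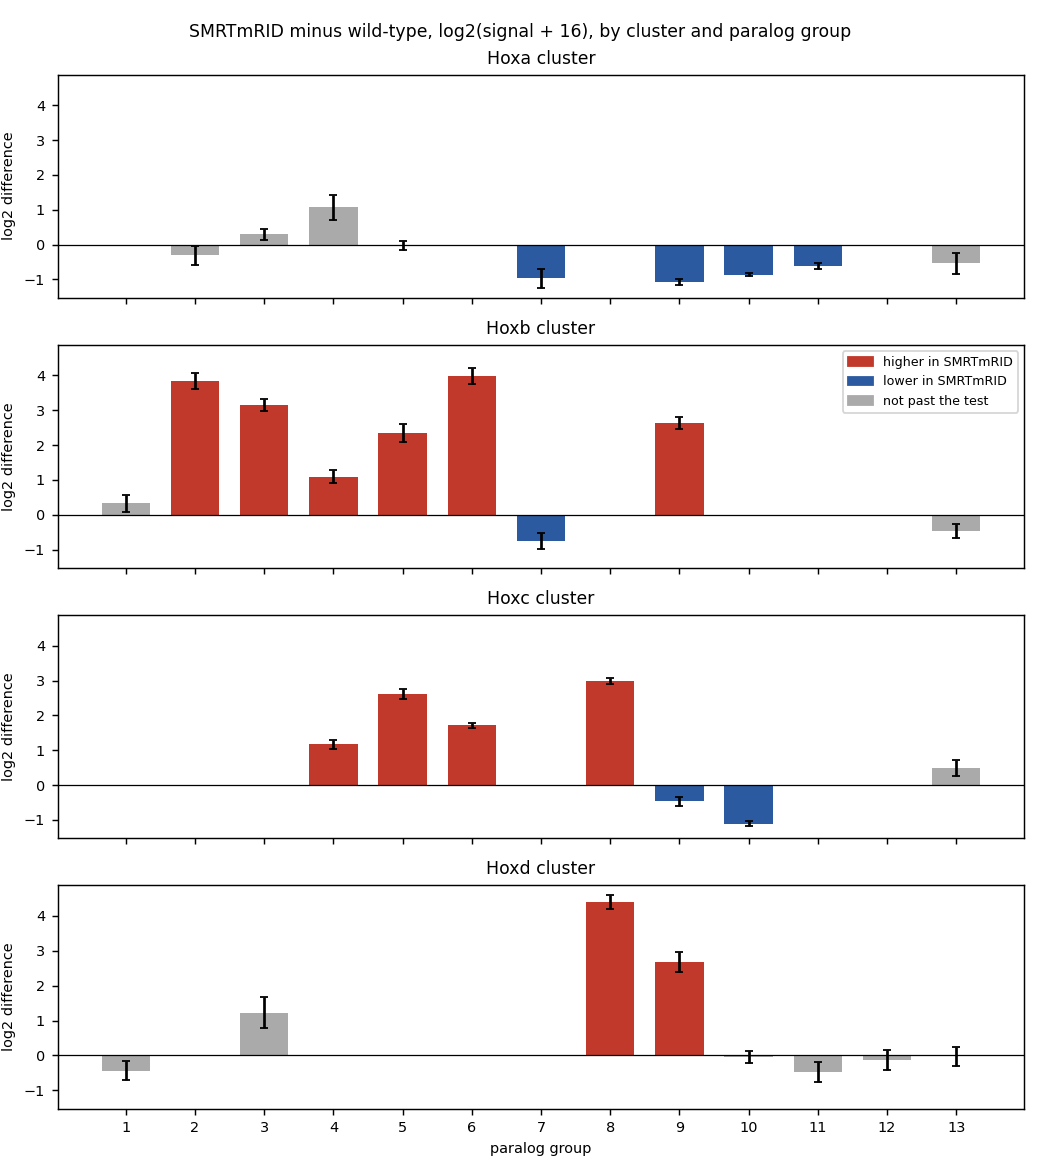
Difference in log2(signal + 16), SMRTmRID minus wild-type, of each Hox gene in order of paralog group within each cluster. Bars are coloured red for genes called higher, blue for genes called lower and grey for the others. Error bars are 1 SE, and genes without a single-gene probe set have no bar. Bars reach 4.39 for Hoxd8 and 3.98 for Hoxb6, and the called Hoxa bars all lie below 0.

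Read across clusters, paralogs of a group did not always share a direction. In group 9, Hoxb9 and Hoxd9 rose while Hoxa9 and Hoxc9 fell. In groups 5, 6 and 8 every called gene rose: Hoxb5 and Hoxc5, Hoxb6 and Hoxc6, and Hoxc8 and Hoxd8. Hoxa5 was the measured member of these groups that missed the test. The called genes of groups 2, 3 and 4 also all rose: Hoxb2, Hoxb3, Hoxb4 and Hoxc4. Hoxa2, Hoxa3, Hoxd3 and Hoxa4 of those groups were not called. Both measured genes of group 7, Hoxa7 and Hoxb7, were called lower, each at low signal. In groups 10 and 11 the called genes, Hoxa10, Hoxc10 and Hoxa11, fell, while Hoxd10 and Hoxd11 were dim and not called. In group 1, 0 of 2 passed the test, and in group 13, 0 of 4, with all 6 of these genes below the median signal on all 4 arrays.

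For genes called at their brightest probe set, the other probe sets mostly moved the same way. The 33 genes had 48 single-gene probe sets, and 11 genes had several. For the called genes there were 9 further probe sets, of 7 genes: 6 of these were called in the same direction, 0 in the opposite one and 3 were not called. Of all probe sets, 15.2% were called higher and 13% lower. Among genes not called, the second probe set of Hoxa4 differed by 0.01, against 1.07 at its brightest. Hoxa3 and Hoxc6 had probe sets beyond 0.2 in both directions, as described above.

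**Figure D3:**
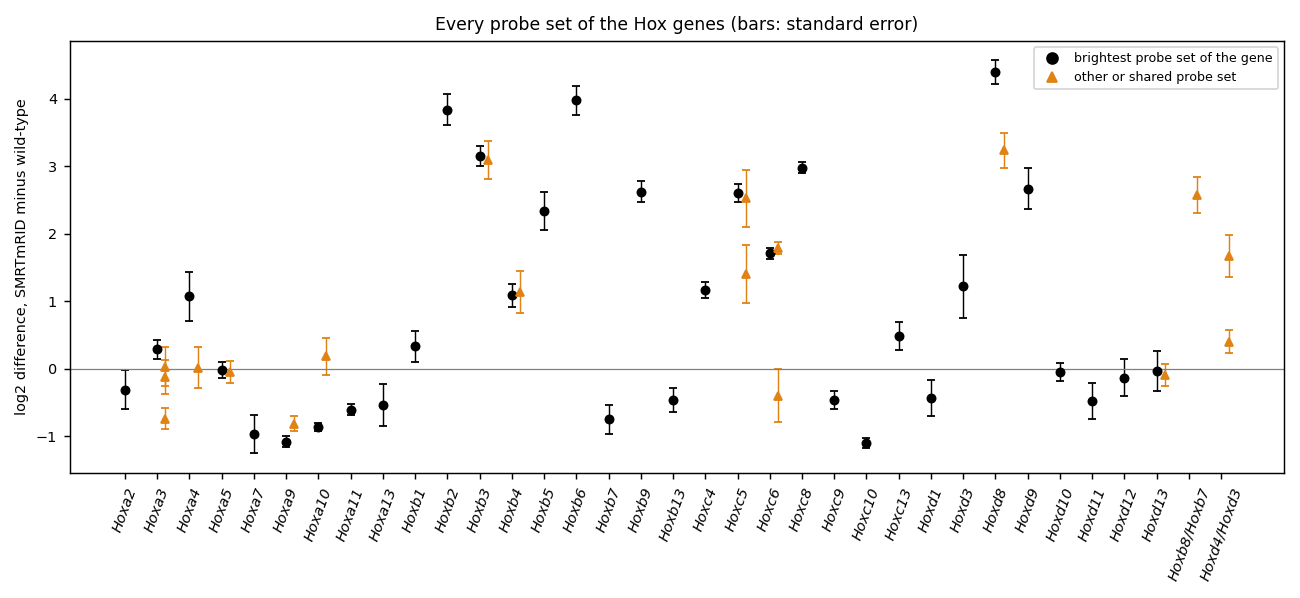
Difference in log2(signal + 16), SMRTmRID minus wild-type, of every single-gene probe set of the 33 measured Hox genes, with error bars of 1 SE. The 3 probe sets shared between Hox genes are shown too. Probe sets of Hoxb3 lie at 3.15 and 3.10 and those of Hoxb4 at 1.09 and 1.14, whereas those of Hoxa3 lie on both sides of 0.

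Genes that are not Hox genes but lie inside the clusters were measured for 5 loci, with 3 called higher, 1 called lower and 1 not called, where 17.8% of all genes were called higher and 19.8% lower. Hoxb5os, a transcript opposite Hoxb5, read 343 and 323 in SMRTmRID cells, against 14.5 and 2.05 in wild-type cells. It rose by 3.90 ± 0.29 (adjusted p = 6.34e-05). Hoxd3os1 read 56.2 and 60.5 in SMRTmRID cells, against 1.96 and 2.48 in wild-type cells, a rise of 2.03 ± 0.26 (adjusted p = 0.000815). Ordered by the lowest map coordinate of each gene, Hoxb5os comes between Hoxb7, whose probe set was called lower, and Hoxb6, which also rose. This order does not give the extent of a gene. Hoxd3os1 rose next to Hoxd3, which itself missed the threshold. Gm15050, between Hoxa3 and Hoxa4 in the same order, read 288 and 274 in SMRTmRID cells, against 138 and 181 in wild-type cells. Its rise was 0.77 ± 0.14 (adjusted p = 0.00415). Hoxa11os, opposite Hoxa11, read 161 and 166 in SMRTmRID cells, against 235 and 224 in wild-type cells. It fell by 0.46 ± 0.10 (adjusted p = 0.0117), like Hoxa11, though the call ended without the first SMRTmRID array (adjusted p = 0.0546) or the first wild-type array (adjusted p = 0.0708), and the average of its probe sets gave -0.21 (adjusted p = 0.401). Gm38462, between Hoxd9 and Hoxd8 in this order, read 19.3 and 44.7 in SMRTmRID cells, against 2.04 and 11.9 in wild-type cells (difference 1.04 ± 0.37, adjusted p = 0.0673).

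Among the 40 neighbouring genes measured outside the clusters, the greatest rise was 1.11 (Snx10), against 4.39 for Hoxd8. The fall of Chn1 (-2.25) was greater than that of any measured Hox gene. Of 40 neighbouring genes, 9 rose (22.5%) and 11 fell (27.5%), beside 17.8% and 19.8% of all genes, and their median difference was -0.07. At least 2-fold differences were called for 2 that rose and 1 that fell. Below the median signal on all 4 arrays were 15% of the neighbours, against 32.2% of all genes. With only genes above the median signal tested, 11 of 31 neighbours were called higher and 12 lower, against 3346 and 3867 of 11057 genes. Near Hoxa, Snx10 rose by 1.11, Tax1bp1 by 1.08 and Hibadh by 0.43. Near Hoxb, Cbx1, a heterochromatin protein gene, rose by 0.36, while Snf8 fell by 0.76, Ube2z by 0.37, Atp5g1 by 0.91, Snx11 by 0.89 and Nfe2l1 by 0.39. Near Hoxc, Cbx5, another heterochromatin protein gene, rose by 0.65, while Tarbp2 fell by 0.60, Atp5g2 by 0.48, Hnrnpa1 by 0.57 and Calcoco1 by 0.21. Near Hoxd, Atf2 rose by 0.91, Mtx2 by 0.49, Agps by 0.57 and Ttc30b by 0.50, while Nfe2l2 fell by 0.35. Chn1, a signalling gene of neurons, also near Hoxd, read 3.26 and 7.55 in SMRTmRID cells, against 95.8 and 75.2 in wild-type cells, and fell by 2.25 ± 0.29 (adjusted p = 0.000802). Calcoco1 was no longer called without any single array (adjusted p between 0.0510 and 0.199), nor Snx11 without the first or second wild-type array (adjusted p = 0.0725 and 0.0551). With the probe sets of each gene averaged, 8 neighbours were called higher and 5 lower, and the calls of Cbx1, Cbx5, Chn1, Agps, Atp5g1, Tarbp2, Ube2z, Nfe2l2 and Calcoco1 ended. With median centring, 7 were called higher and 11 lower.

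Of the genes just beside the clusters, Mtx2, next to Hoxd1, was called higher (0.49), and Calcoco1, next to Hoxc13, was called lower (-0.21). Several others did not pass the test. Skap2, beside Hoxa, differed by -0.08 (adjusted p = 0.312) at its brightest probe set and by 0.46 (adjusted p = 0.00228) with its probe sets averaged. Skap1, beside Hoxb, differed by 0.78 (adjusted p = 0.102), and Smug1, beside Hoxc, by -0.14 (adjusted p = 0.456). Evx1 and Evx2, homeobox genes at the 5′ ends of Hoxa and Hoxd, differed by -0.18 (adjusted p = 0.580) and 0.17 (adjusted p = 0.885). Evx2 read 43.3 and 3.62 in SMRTmRID cells, against 36.3 and 1.58 in wild-type cells, so its arrays of a genotype lay further apart than the genotypes did.

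**Figure D4:**
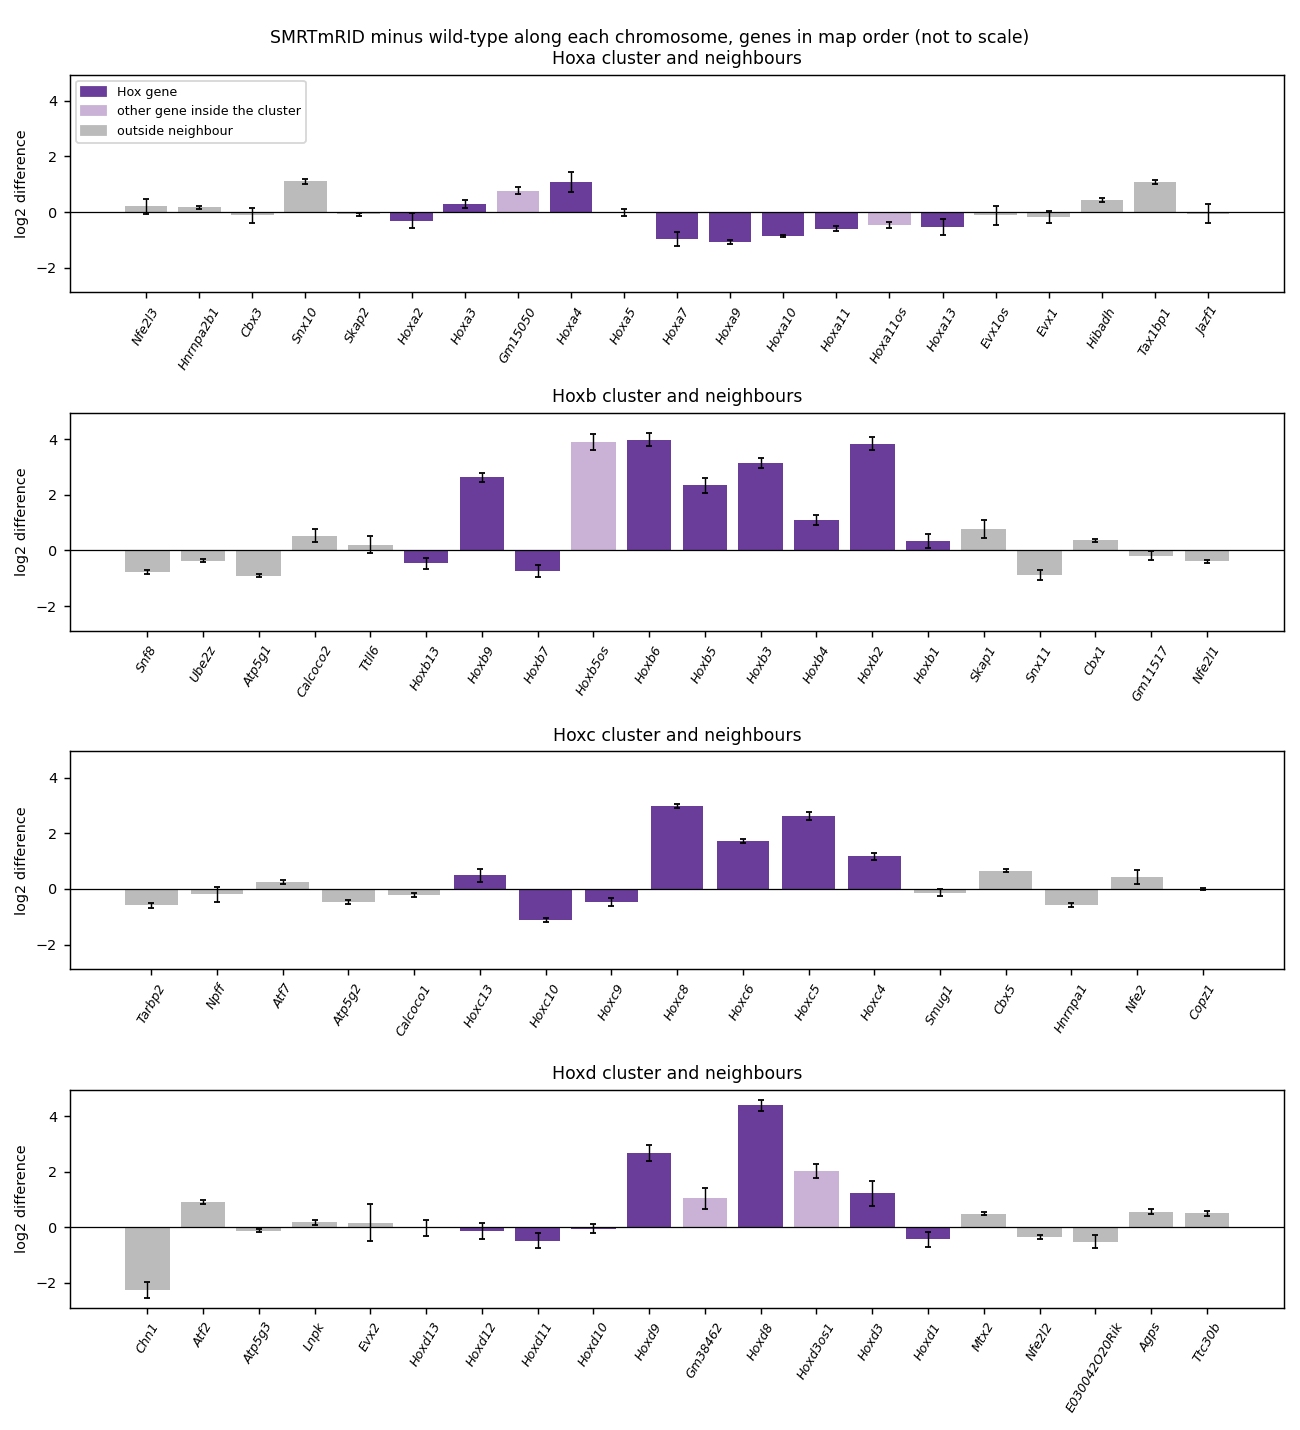
Difference in log2(signal + 16), SMRTmRID minus wild-type, of Hox genes, other genes inside the clusters and neighbours outside. Genes of each cluster stand in order of lowest map coordinate, with error bars of 1 SE. Most outside genes lie between -1 and 1, while several genes within Hoxb, Hoxc and Hoxd exceed 2.

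Among 8 measured cofactor genes, 3 rose (37.5%), 1 fell (12.5%) and 4 were not called, with a median of 0.10. Over all genes 17.8% were called higher and 19.8% lower. Of the cofactor, Polycomb and trithorax genes, 0 were below the median signal on all 4 arrays, against 32.2% of all genes. With only genes above the median signal tested, 3346 of 11057 genes were called higher and 3867 lower. Cofactor calls were then 3 higher and 1 lower of 8. Meis2, a cofactor that binds DNA beside PBX and HOX proteins, read 215 and 198 in SMRTmRID cells, against 569 and 586 in wild-type cells. It fell by 1.42 ± 0.08 (adjusted p = 1.65e-05). The rises were small: Pknox1 (PREP1) rose by 0.39 (adjusted p = 0.0201), Meis1 by 0.38 (adjusted p = 0.0406) and Pbx2 by 0.35 (adjusted p = 0.00238). Leaving out 1 array ended the call of Meis1 in each case (adjusted p between 0.0523 and 0.213) and the call of Pknox1 without the first or second SMRTmRID array or the second wild-type array (adjusted p = 0.0781, 0.0998 and 0.0901). With each array centred on its median, 0 cofactor genes were called higher and Meis2 alone was called lower. Of 9 measured upstream regulators of Hox genes, 1 fell and the other 8 did not pass the test. Gmnn, whose product geminin binds Hox and Polycomb proteins, fell by 0.47 ± 0.07 (adjusted p = 0.00143). Cdx1, Cdx2, Cdx4 and Gata4, 44.4% of the 9, were below the median signal on all 4 arrays, against 32.2% of all genes.

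Of 25 measured Polycomb genes, 11 rose (44%), 7 fell (28%) and 7 were not called, with a median of 0.15. Over all genes 17.8% were called higher and 19.8% lower. With only genes above the median signal tested, 13 of the 25 were called higher and 7 lower, against 3346 and 3867 of 11057 genes. Mtf2, a partner of the histone methylating complex, read 625 and 560.5 in SMRTmRID cells, against 240 and 209 in wild-type cells. It rose by 1.34 ± 0.09 (adjusted p = 5.00e-05). Eed, a core subunit of that complex, read 415 and 388 in SMRTmRID cells, against 743 and 755 in wild-type cells. It fell by 0.87 ± 0.06 (adjusted p = 4.81e-05), and by 0.46 with its probe sets averaged (adjusted p = 0.0291). Mtf2 and Eed thus moved in opposite directions. Phc3 rose by 0.90 ± 0.11 (adjusted p = 0.000659), and Cbx8, a chromodomain subunit, fell by 0.93 ± 0.20 (adjusted p = 0.00868), a call that ended without the first wild-type array (adjusted p = 0.0668). With median centring the Polycomb calls were 7 higher and 7 lower.

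Of 14 measured trithorax genes, 5 rose (35.7%), 4 fell (28.6%) and 5 were not called, with a median of -0.09. Over all genes 17.8% were called higher and 19.8% lower. With only genes above the median signal tested, 5 of the 14 were called higher and 4 lower, against 3346 and 3867 of 11057 genes. Kmt2c, a histone methyltransferase, rose by 0.75 ± 0.09 (adjusted p = 0.000776), and Psip1, which tethers a related complex to chromatin, rose by 0.62 ± 0.07 (adjusted p = 0.000516), and by 1.72 with its probe sets averaged. Ash2l, a shared subunit of these methyltransferases, read 983 and 1048 in SMRTmRID cells, against 1653 and 1615 in wild-type cells. It fell by 0.68 ± 0.05 (adjusted p = 6.45e-05), but the mean of its probe sets gave -0.18 (adjusted p = 0.352). Mllt10 rose by 0.64 ± 0.09 (adjusted p = 0.00143), and the mean of its probe sets gave 0.13 (adjusted p = 0.664). With median centring the trithorax calls were 3 higher and 5 lower.

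**Figure D5:**
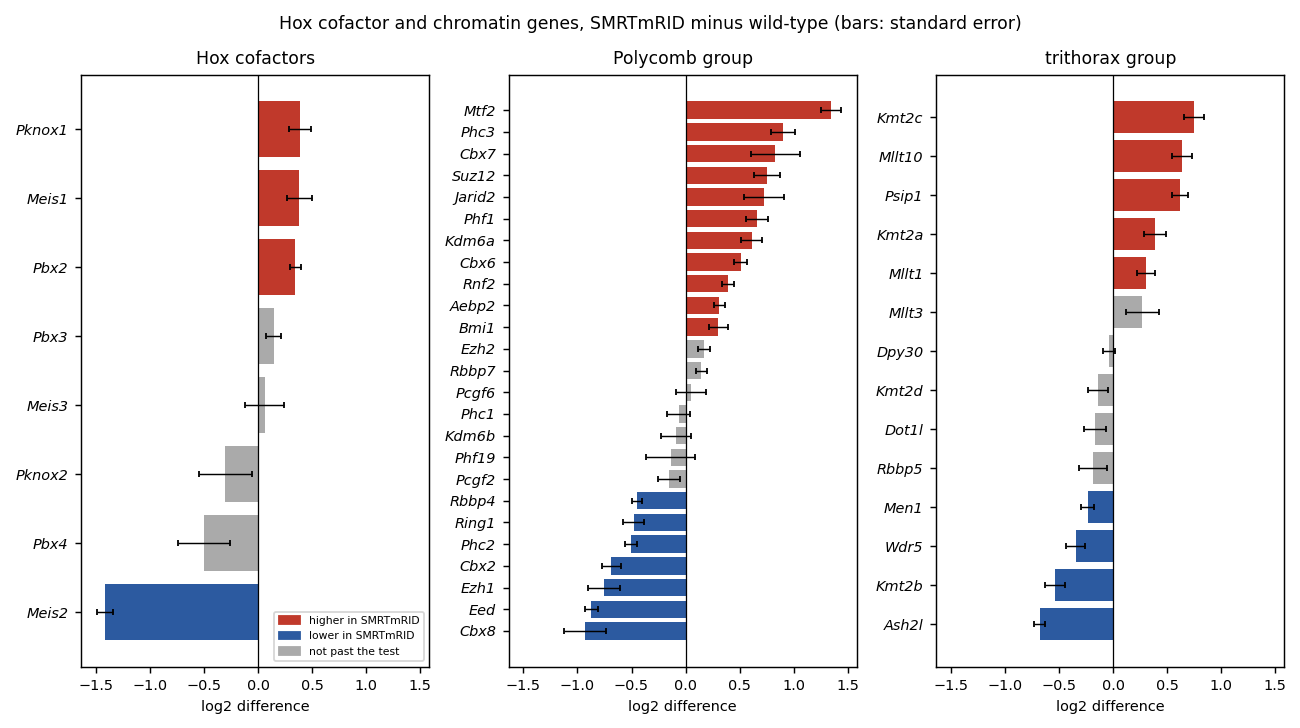
Difference in log2(signal + 16), SMRTmRID minus wild-type, of cofactor, Polycomb and trithorax genes, with bars coloured red for called higher, blue for called lower and grey for the others, and error bars of 1 SE. Meis2 at -1.42 and Mtf2 at 1.34 stand furthest from 0 among these lists.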

How the data were processed

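The values are the authors' deposited intensity values, linear MAS5 signals according to the submitters' processing notes. The trimmed mean of the deposited intensity values, without the lowest and highest 2%, was 200.0 on every array. Of 45101 probe sets, 64 controls were left out. Platform annotation gave 34945 of the other 45037 a single gene symbol, 932 several and 9160 none here, and 34741 were found in the RefSeq table of GRCm38.p6. The brightest probe set by mean signal stood for a gene.

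Genes were tested with limma 3.58.1 in R 4.3.3 on log2(signal + 16) with no filter, a variance trend and Benjamini-Hochberg adjustment over 18193 genes. The scripts were tested on simulated data. A fold against a dim group depends on the pseudocount. Depth is not defined for arrays, and 2 arrays per genotype limit the precision. Same-numbered arrays did not deviate together (correlation -0.00408), so the number was not taken as a pairing. The alternatives varied the pseudocount, signal filter, scaling, variance trend, probe set choice, replicate block and arrays, and a fit over all probe sets was added after the data were seen. All listed Hox genes are named, as are all called neighbours and up to 4 called genes with the greatest difference of each cofactor, regulator, Polycomb and trithorax list. All called cell type markers are named too, and they and the uncalled markers given were chosen after their values were seen. Members and lists were chosen with earlier results of these data known. Figures were drawn with matplotlib 3.10.9.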

Additional observations from a re-analysis of the deposited data

How the results depend on the processing

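Of the 19 called Hox genes, 16 passed the test in every alternative that tested them, and Hoxa7, Hoxb7 and Hoxc9 did not. Among genes above the 75th percentile of signal, 4 Hox genes were called higher and the same number at least 2-fold higher, since only 9 Hox genes were then tested. The number called at least 2-fold higher was 10 with a pseudocount of 64, and 11 with quantile normalization or median centring. It was 13 among genes above the median signal and with the replicate number as a block. The number called lower ranged between 4 and 5 when single arrays were left out, and the number called higher between 12 and 13. The number called at least 2-fold lower was 1 with a pseudocount of 64, 4 with median centring and 1 when all probe sets of a gene were averaged, and between 1 and 2 with single arrays left out. With the replicate number as a block, 13 Hox genes were called higher and 6 lower: Hoxb7 was lost (adjusted p = 0.0511) and Hoxa4 gained (adjusted p = 0.0389). Averaging probe sets turned the direction of Hoxa3 (-0.13), Ube2z (0.12), Nfe2l2 (0.030) and Skap2 (0.46, adjusted p = 0.00228). With single arrays left out, the difference ranged between -0.11 and 0.070 for Hoxa5, -0.49 and 0.23 for Hoxd12, -0.27 and 0.22 for Hoxd13, and -0.63 and 0.97 for Evx2, none of them called. The cause of these changes was not tested. Values near 0 limit every difference from a silent gene, whose size depends on the pseudocount.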
